A study of Homo sapiens with 2 samples.

Results

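The regions described here are 16124 accessible sites that were called in U2OS cells carrying the sh-VNGD hairpin and had no called counterpart in U2OS cells carrying the sh-ctrl hairpin. They were selected on the pileup, the number of sequence tags covering the summit of a peak, and on overlap between the peak lists of both libraries. A peak of the sh-VNGD library on chromosomes 1 to 22 entered the set when its pileup was 20 tags or more and when it overlapped no sh-ctrl peak by even 1 bp. The sh-VNGD library had 285039 peaks on these chromosomes, of which 99564 reached a pileup of 20, so that the knockdown-only peaks made up 16.2% of these and the 83440 shared peaks the rest. The same rule applied to the sh-ctrl library gave 6061 of 74364 peaks (8.15%). Since the rule fixes these counts, they are given as a description.

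U2OS is an established human osteosarcoma line. VNGD is Vanguard, a long non-coding RNA that the study's title links to glucose deprivation and to DNA repair that relies on chromatin remodelling. The sh-VNGD group (1 library) had received a hairpin against it and the sh-ctrl group (1 library) a control hairpin, by infection, and both were grown in DMEM with serum. The sources used here give neither the number of hairpin sequences nor whether the cells were a pool or a clone, and an assay of DNA does not show how far the RNA was lowered. ATAC-seq uses the Tn5 transposase, which cuts and tags DNA where nucleosomes leave it exposed, so a peak marks a stretch of open chromatin. In human cells such stretches lie at promoters, where transcription starts, and at enhancers and insulators, many of which are inside introns or far from genes. The libraries hold DNA from many cells, so opening in a few cells and a slight opening in all of them cannot be told apart.

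With 1 library a group, nothing below has a replicate check and no p-value was computed for a difference between the groups. Shares carry Wilson 95% intervals and medians carry 95% order-statistic intervals, which cover counting error only and treat peaks as independent, which neighbouring peaks are not. After removal of repeated positions, 31326715 tags were kept for sh-VNGD and 22931980 for sh-ctrl, a ratio of 1.37, although 48164322 and 51628228 tags had been read for sh-VNGD and sh-ctrl. The pileup is a count of tags that is not scaled for this difference. A peak list also says nothing of tags below the calling threshold, so the absence of a sh-ctrl peak is not an absence of sh-ctrl tags. At gene ends of bone and mesenchymal markers, the highest peak of SP7 had 43 tags in sh-VNGD cells and 48 tags in sh-ctrl cells. At TWIST1 the highest peak had 41 tags in sh-VNGD cells and 12 tags in sh-ctrl cells, while COL1A1 and ALPL had 15 tags each in sh-VNGD and no peak in sh-ctrl. VIM and RUNX2 had no peak at either outer end in either library. Ends of the epithelial genes CDH1 and EPCAM also held peaks, of 138 and 108 tags in sh-VNGD cells against 127 and 139 tags in sh-ctrl cells, so open gene ends did not follow the lineage of the line throughout.

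Few knockdown-only peaks lay on a promoter. Of 33725 RefSeq promoter windows, each reaching from 250 bases before to 50 bases after a start site, 271 windows of 250 gene symbols overlapped a knockdown-only peak and no sh-ctrl peak. The windows come from GRCh38.p14. The 4 protein-coding windows with the highest such peaks are printed to show how unlike each other these promoters are in base composition, and they were chosen after their values had been seen. Capitals mark CCAAT and GGGCGG on either strand (a match on the other strand is shown as its reverse complement). The AP-1 site TGANTCA and the ETS core CCGGAAG were searched on both strands as well and had no match in these windows. Each line runs 5′ to 3′ on the gene's own strand.
FRMD8: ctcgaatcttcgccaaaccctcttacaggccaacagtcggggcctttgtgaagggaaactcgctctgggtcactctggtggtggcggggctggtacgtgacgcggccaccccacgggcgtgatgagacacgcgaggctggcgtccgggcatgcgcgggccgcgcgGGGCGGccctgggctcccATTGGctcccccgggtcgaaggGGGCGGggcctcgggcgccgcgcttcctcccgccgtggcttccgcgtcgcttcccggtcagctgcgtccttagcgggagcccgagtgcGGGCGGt
SEMA3B: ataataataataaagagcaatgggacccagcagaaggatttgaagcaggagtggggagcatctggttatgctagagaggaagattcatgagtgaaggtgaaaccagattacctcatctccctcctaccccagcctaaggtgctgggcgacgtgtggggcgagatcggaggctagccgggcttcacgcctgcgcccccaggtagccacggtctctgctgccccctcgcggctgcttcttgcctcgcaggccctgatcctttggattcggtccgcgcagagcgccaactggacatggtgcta
DQX1: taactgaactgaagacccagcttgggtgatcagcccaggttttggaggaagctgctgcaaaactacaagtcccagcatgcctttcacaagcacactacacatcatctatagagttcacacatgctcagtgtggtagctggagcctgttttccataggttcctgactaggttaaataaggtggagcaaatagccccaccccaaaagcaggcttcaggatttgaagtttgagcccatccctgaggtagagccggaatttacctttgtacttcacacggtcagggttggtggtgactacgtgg
TP53INP2: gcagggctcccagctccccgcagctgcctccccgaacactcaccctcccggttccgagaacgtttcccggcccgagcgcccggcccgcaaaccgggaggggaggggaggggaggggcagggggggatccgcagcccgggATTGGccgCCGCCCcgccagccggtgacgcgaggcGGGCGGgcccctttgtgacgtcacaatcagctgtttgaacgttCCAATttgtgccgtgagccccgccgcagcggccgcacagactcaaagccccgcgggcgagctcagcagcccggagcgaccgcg

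The FRMD8 window is chr11:65386387-65386686 on the plus strand, and the peak over it had a pileup of 78 tags with its summit 30 bases before the start site. FRMD8 encodes a partner of the iRhom proteins, which govern shedding of growth factors from the cell surface. The window is 72.0% G and C, with 38 CG dinucleotides, 3 GGGCGG matches and 1 CCAAT match. SEMA3B, a secreted semaphorin, has its window at chr3:50272869-50273168 on the plus strand, where the peak reached 68 tags. That window has 57.7% G and C, 15 CG dinucleotides and neither motif. The window of DQX1, a gene named for its DEAQ-box helicase domain, is chr2:74526182-74526481 on the minus strand. Its peak of 60 tags stood over a sequence with 49% G and C and only 3 CG dinucleotides. For TP53INP2, an autophagy regulator, the window is chr20:34704094-34704393 on the plus strand, with 73.0% G and C, 35 CG dinucleotides and 2 matches of each motif. The peak there had 58 tags, and a sh-ctrl peak of 41 tags lay 155 bp from its edge. For the other 3 promoters the nearest sh-ctrl peak was farther away, at 3338 bp for FRMD8, 1119 bp for SEMA3B and 2759 bp for DQX1.

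Knockdown-only peaks were mostly just above the threshold. Their median pileup was 23 tags (quartiles 21 to 26), and the highest had 260. Among sh-VNGD peaks of 20 or 21 tags, 6005 of 14401 (41.7%) had no sh-ctrl peak. The share was 33.1% at 22 to 24 tags, 21.8% at 25 to 29 tags and 9.92% at 30 to 39 tags. It was 4.13% at 40 to 49 tags and 1.37% at 50 to 74 tags, and among the 8133 sh-VNGD peaks of 100 tags or more 12 peaks (0.148%) were knockdown-only. The rule has no natural edge at its threshold. At exactly 20 tags, 3437 of 7908 peaks (43.5%) had no sh-ctrl peak and entered the set, with a median fold enrichment of 5.47 over local background. Just outside it, at 19 tags, 4560 of 9615 peaks (47.4%) had none, with a median fold enrichment of 5.46.

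**Figure D1:**
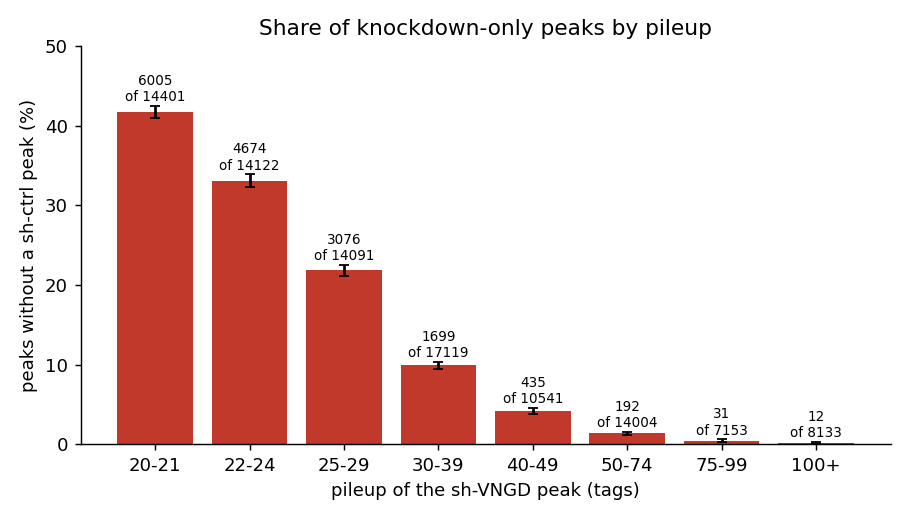
Percentage of sh-VNGD peaks without an overlapping sh-ctrl peak (y axis) by pileup of the sh-VNGD peak in tags (x axis), chromosomes 1 to 22. Bars carry Wilson 95% intervals and the counts, and the share is 41.7% in the lowest class and 0.148% in the highest.

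The pileups were also set beside those of sh-ctrl peaks after scaling for depth. The sh-ctrl library kept 0.732 tags for each tag of sh-VNGD, which turns a pileup of 20 into 14.6 tags, and the median scaled pileup of the knockdown-only peaks was 16.8 tags. All sh-ctrl peaks together had a median pileup of 15 tags and the lowest had 6. With pileup and background both scaled, 16120 of the 16124 knockdown-only peaks kept a Poisson −log10 p above 2.81, the lowest value called in sh-ctrl. The same held for 28857 of 28859 shared peaks of 20 to 29 tags, so this measure did not separate the sets. The rule asks for 20 tags or more and the bar is the weakest sh-ctrl call, so nearly any such peak passes. The measure therefore cannot show why a sh-ctrl peak was absent. It uses expected values without their counting spread, and the part of depth in the absence of a sh-ctrl peak was not tested. Those 28859 shared peaks had a median of 23 tags in sh-VNGD, and the sh-ctrl peak that overlapped them had a median of 18 tags (quartiles 14 to 24). Their sh-ctrl partners ranged from 10 tags at the 5th percentile to 42 at the 95th.

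At like pileup, between 20 and 29 tags, knockdown-only peaks stood on a higher local background than shared ones. The local background is the number of tags that the peak caller expected at the summit from the surrounding sequence of the same library, and it was worked out from the deposited pileup and fold enrichment. Pileup and background were not part of the overlap rule beyond the threshold, but both bear on which peaks are called, so these values describe the set. Between 20 and 29 tags, 13755 knockdown-only peaks had a median background of 3.36 tags (95% interval 3.32 to 3.40), against 2.56 tags in shared peaks (2.56 to 2.58). Median fold enrichment was 5.30 in knockdown-only peaks and 6.83 in shared peaks, and median length was 256 bp and 289 bp in the same order. A background of 5 tags or more was found under 22.3% (21.7 to 23) of knockdown-only peaks and 8.85% (8.53 to 9.18) of shared peaks. At the other extreme, 19.4% of knockdown-only and 28.1% of shared peaks sat at the lowest background of the library, 1.92 tags. Over all pileups the order was the other way, with a median background of 3.66 tags in knockdown-only and 3.88 tags in shared peaks. A background of 5 tags or more was then under 30.1% of knockdown-only and 35.6% of shared peaks, and one of 10 tags or more under 4.88% and 7.90%. The median pileup of all shared peaks was 38 tags.

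Among sh-VNGD peaks of 20 to 29 tags, the share of knockdown-only peaks was higher in each class of background than in the one below it. It was 24.4% (2901 of 11890) where the background was below 2 tags and 24.8% between 2 and 3 tags, 2 shares whose intervals overlap. It reached 32.9% between 3 and 4 tags, 42.6% between 4 and 5 tags, 49.3% between 5 and 6 tags and 58.3% between 6 and 8 tags. At a background of 8 tags or more it was 61.8% (420 of 680 peaks of 20 to 29 tags), with an interval that overlaps that of the class below. The part of local background in the presence of a peak in 1 library only was not tested.

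**Figure D2:**
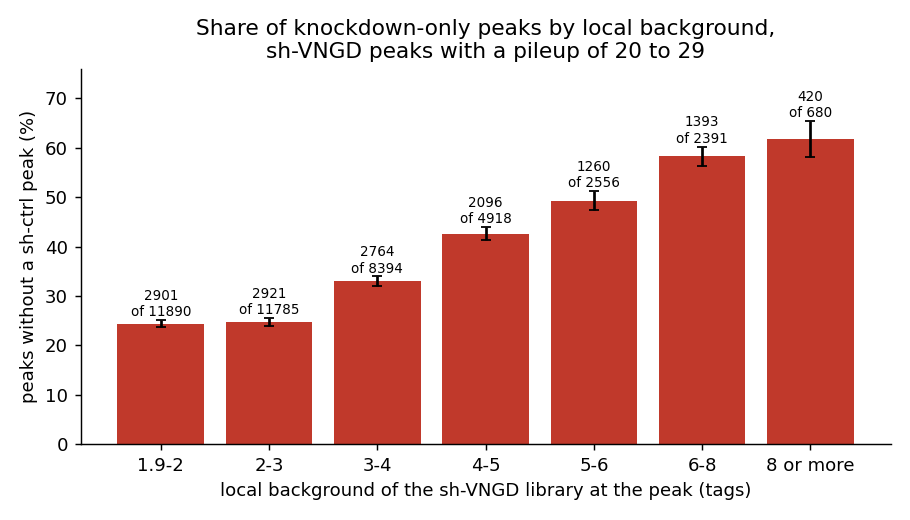
Percentage of sh-VNGD peaks of pileup 20 to 29 without a sh-ctrl peak (y axis) by local background of the sh-VNGD library in tags (x axis). Bars carry Wilson 95% intervals and counts, from 24.4% in the lowest class to 61.8% in the highest.

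Most knockdown-only peaks had a sh-ctrl peak in the neighbourhood. The median distance to the nearest sh-ctrl peak edge was 2205 bp. A sh-ctrl peak lay within 100 bp of 402 of them (2.49%), within 500 bp of 17.1% and within 1 kb of 29.1% (28.4 to 29.8). Within 5 kb the share was 74.5% and within 10 kb it was 88.8%. When the same peaks were moved along the chromosome by 50 kb, 22.2% came within 1 kb of a sh-ctrl peak, 64.0% within 5 kb and 82.6% within 10 kb, and the median distance was 3256 bp. Within 100 bp the moved peaks stood higher, at 7.63%, since they may overlap a sh-ctrl peak, which the rule bars for the knockdown-only peaks. In the range of 20 to 29 tags, 26.5% of knockdown-only peaks had a sh-ctrl peak within 1 kb, against 5769 of 28859 shared peaks with a further sh-ctrl peak besides the one they overlapped. The median distances of these groups were 2438 bp and 4213 bp in the same order.

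The neighbouring sh-ctrl peaks were often strong ones. Where one lay within 1 kb, its median pileup was 26 tags (quartiles 15 to 60), and 30.7% of these neighbours had 50 tags or more. Beyond 1 kb the nearest sh-ctrl peak had a median of 18 tags, and 19.6% had 50 or more, while over all sh-ctrl peaks the median was 15 tags and 14.1% had 50 or more. Of the 4695 neighbours within 1 kb, 870 (18.5%) overlapped no sh-VNGD peak themselves, against 27.8% of all sh-ctrl peaks. A shared sh-VNGD peak of 20 tags or more lay within 1 kb of 3386 of the knockdown-only peaks and within 10 kb of 10804 (67.0%).

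**Figure D3:**
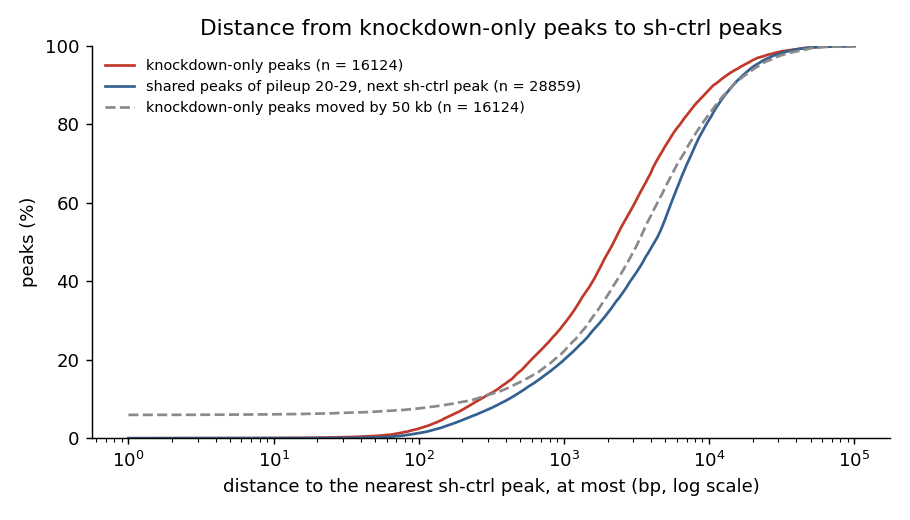
Cumulative percentage of peaks (y axis) by distance to the nearest sh-ctrl peak in bp on a log scale (x axis), for knockdown-only peaks, for shared peaks of 20 to 29 tags with their next sh-ctrl peak, and for knockdown-only peaks moved by 50 kb, some of which then overlap a sh-ctrl peak. At 1 kb the knockdown-only curve stands at 29.1% and that of the moved peaks at 22.2%.

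Isolated peaks were few, at 67 beyond 50 kb and 3 beyond 100 kb, and those farthest away were small. The farthest, chr2:146220378-146220609, had 20 tags and lay 147697 bp from the nearest sh-ctrl peak, itself of 7 tags. Next came chr7:62427084-62427355, with 20 tags at 131624 bp, and chr13:102197290-102197513, with 20 tags at 105649 bp inside FGF14, the gene of an intracellular regulator of sodium channels. The fourth, chr18:60793783-60794400, had 22 tags at 98553 bp and was long, at 618 bp. The fifth, chr15:25102000-25102247, had 20 tags at 95620 bp and lay in SNHG14, the long transcript of the imprinted region on chromosome 15. All of these had a local background at or close to the lowest of the library.

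Knockdown-only peaks lay mainly away from gene ends. A gene end here is an outer bound of a protein-coding gene, with the summit no more than 1000 bp from it. Of the knockdown-only peaks, 1077 (6.68%, 6.30 to 7.08) were at a gene end, 6749 (41.9%) were inside a gene and 8298 (51.5%) were outside. Shared peaks of all pileups were at a gene end in 16.2%, inside in 40.3% and outside in 43.5%. The gap was smaller at like pileup. Between 20 and 29 tags the gene-end share was 4.90% in knockdown-only and 5.75% in shared peaks, the share inside genes 42.1% and 45.3%, and the share outside 53.0% and 48.9%, knockdown-only first each time. Moved by 50 kb, the knockdown-only peaks were at a gene end in 4.10% (3.80 to 4.42). Keeping only the 11277 knockdown-only peaks with a local background under 5 tags, a choice made after seeing the data, gave 2.83%.

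The next 2 classes had the other order. At 30 to 39 tags, 16.1% (14.4 to 17.9) of knockdown-only peaks and 10.7% (10.2 to 11.2) of shared peaks were at a gene end. At 40 to 49 tags the shares were 19.3% (15.9 to 23.3) in knockdown-only and 14.4% (13.8 to 15.1) in shared peaks, and at 50 to 74 tags they were 21.4% and 22.4%, with overlapping intervals. Start sites were counted as well. Leaving out chromosome 8, for which no windows were used here, 1.17% of knockdown-only peaks of 20 to 29 tags had the summit within 250 bp of a RefSeq start site, against 2.76% of shared peaks of that range. Within 1000 bp the shares were 4.79% and 5.71% in the same order, close to those at gene ends. Over all pileups the shares within 250 bp were 1.61% of knockdown-only and 11.8% of shared peaks. Among the 20 to 29 class the ends of long non-coding RNA genes took 3.53% of knockdown-only and 4.08% of shared peaks, and those of pseudogenes 1.51% and 1.41%. Over the whole set, the ends of transfer RNA genes took 23 knockdown-only peaks (0.143%, against 0.330% of shared peaks) and those of microRNA genes 35 (0.217%, against 0.393%). Small nuclear RNA gene ends took 3 (0.0186%, against 0.131% of shared peaks) and small nucleolar RNA gene ends 22 (0.136%, against 0.101%). These last shares are over all pileups, which differ between the sets.

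**Figure D4:**
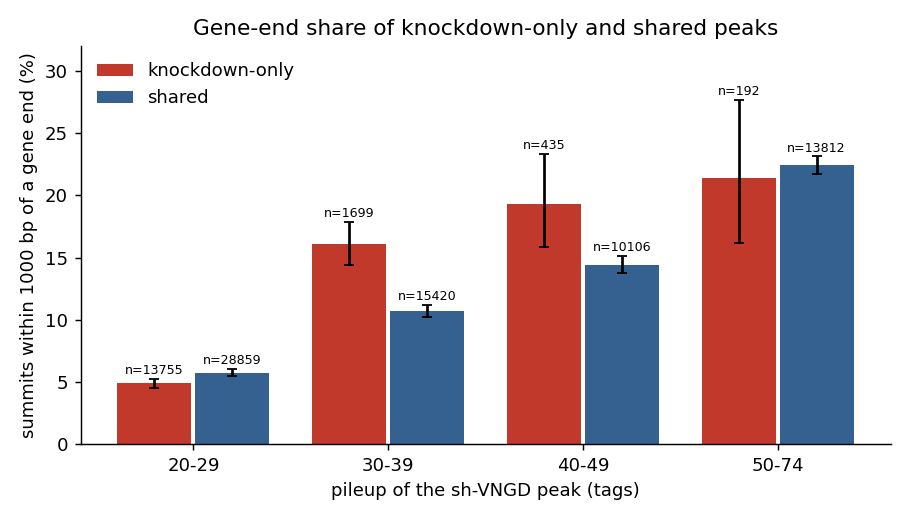
Percentage of summits within 1000 bp of an outer end of a protein-coding gene (y axis) by pileup class of the sh-VNGD peak in tags (x axis), for knockdown-only and shared peaks. Bars carry Wilson 95% intervals, and knockdown-only peaks stand at 4.90% in the lowest class and 16.1% in the next.

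The sequences of the promoter windows were compared within one range of pileup. Between 20 and 49 tags, 256 windows held a knockdown-only peak and no sh-ctrl peak, and 3614 windows held a shared peak. CCGGAAG, the core that ETS factors bind, was on either strand in 6.64% (4.19 to 10.4) of knockdown-only windows, in 13.1% (12.1 to 14.3) of shared windows and in 10.3% of all windows. TATAAA, the TATA box core, was in 3.91% (2.14 to 7.04), 7.47% (6.66 to 8.37) and 11.6% of the same 3 groups. GGGCGG, the Sp1 core, was in 56.3%, 62.3% and 45.0%. For CCAAT the shares were 29.7%, 27.2% and 34.4%, for TGANTCA, the AP-1 site, 7.42%, 6.50% and 7.67%, for CACGTG, the E-box, 8.20%, 9.30% and 7.18%, and for AGGTCA, a nuclear receptor element, 14.8%, 11.4% and 13.8%. The median number of CG dinucleotides was 20 in knockdown-only, 24 in shared and 14 in all windows. Of the 7 motifs, CCGGAAG was the one whose interval in knockdown-only windows did not overlap that in shared windows, and the intervals of TATAAA overlapped slightly. Pileup still differed within this range. Of all knockdown-only peaks, 13755 had 20 to 29 tags and 1699 had 30 to 39, against 28859 and 15420 shared peaks. CCGGAAG was in 18.8% of windows with a shared peak of any pileup, and the part of pileup in its difference was not tested. These motifs were chosen with earlier values of these data known, and a match of letters is not a bound site.

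The strongest knockdown-only peaks were in repeated DNA. Of the 10 with the highest pileup, 8 lay on chromosome 21 in a stretch of the short arm that carries copies of the unit for ribosomal RNA. The highest were chr21:8213910-8214257 and chr21:8441169-8441486, with 260 tags each, in RNA28SN2 and RNA28SN1, the 28S ribosomal RNA genes of different copies. Their local background was 196 and 201 tags, so that the fold enrichment was only 1.33 and 1.29. Next was chr21:8432785-8433098 with 171 tags and a fold of 1.48, at 89 bp from a sh-ctrl peak of 162 tags. Peaks of 125 tags stood at chr21:8231084-8231373 and chr21:8458222-8458511, and peaks of 118 tags at chr21:8226185-8226410, chr21:8409188-8409409 and chr21:8453329-8453556. Equal pileups thus recurred in different copies. The sources used here do not say how reads from near-identical sequences were placed, so values of single copies are uncertain and the copies are not counted as separate observations. The whole stretch held 58 sh-VNGD peaks of 20 tags or more, of which 19 were knockdown-only and 39 shared, and 51 sh-ctrl peaks with a median of 171 tags. Fold enrichment of the 19 ran from 1.29 to 3.66, over a background of 8.56 to 201 tags, so the repeat was densely covered by peaks of both libraries.

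The other 2 of the highest 10 were outside that repeat. One, chr20:47988748-47989144, had 150 tags, a fold of 4.56 and a background of 32.1 tags, in the non-coding gene LINC01522. A sh-ctrl peak of 163 tags lay 653 bp from it. The other, chr17:61414463-61414669, had 117 tags over a background of 58.8 tags, 5082 bp from an end of TBX2, the gene of a T-box transcription factor, and 1711 bp from a sh-ctrl peak of 215 tags. All 10 of these peaks stood on a background of 32.1 to 201 tags, against a median of 3.66 tags in the whole set.

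At protein-coding gene ends, the 8 highest knockdown-only peaks had 67 to 95 tags and fold enrichments of 2.64 to 4.41. The first was chr1:204127703-204127950, with 95 tags, 77 bp from an end of SOX13, a SOX family transcription factor gene. Its background was 21.1 tags, and a sh-ctrl peak of 161 tags lay 1156 bp away. TUBB3, the neuronal class III beta-tubulin, had a peak of 83 tags inside the gene at chr16:89922416-89922691. A sh-ctrl peak of 66 tags was 401 bp away. TPD52L2, of the tumour protein D52 family, had 79 tags at chr20:63865787-63866053, at 249 bp from a sh-ctrl peak of 232 tags. At TUBD1, the delta-tubulin gene, the peak of 76 tags, chr17:59859510-59859709, lay 487 bp from a sh-ctrl peak of 60 tags that overlapped no sh-VNGD peak. TDRKH, a Tudor domain gene of the piRNA pathway, had 75 tags at chr1:151791396-151791644, 201 bp from a sh-ctrl peak of 206 tags. RNF223, a RING finger gene, had 74 tags at chr1:1069877-1070468. VDAC2, a channel of the outer mitochondrial membrane, had 68 tags at chr10:75230656-75230889, and IER2, an immediate early gene, had 67 tags at chr19:13154328-13154563. For the last 3, the nearest sh-ctrl peak lay at 372 bp, 2173 bp and 370 bp. These summits were 624 bp or more from the gene's own start site in all 8, and none overlapped a promoter window.

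Peaks that stood out most against their surroundings were of another kind. A fold enrichment of 10 or more was found in 204 knockdown-only peaks (1.27%), or 0.753% of the 27081 sh-VNGD peaks with such a fold. Their pileup was 29 to 59 tags and their median background 1.92 tags, with 116 of them at the lowest background. They lay farther from sh-ctrl peaks than the set as a whole, at a median of 6256 bp, and 34.3% were beyond 10 kb, against 11.2% of all knockdown-only peaks. Only 3 were at a gene end, 83 were inside genes and 118 outside, and 11 had another knockdown-only peak within 10 kb. The highest folds, looked up after values had been seen, were at chr6:159311596-159311956, with 48 tags and a fold of 16.0, and at chr5:57835213-57835667, with 48 tags and a fold of 15.3. The nearest sh-ctrl peak was 18079 bp from the peak on chromosome 6 and 26753 bp from the one on chromosome 5. Peaks of 43 tags at chr9:64121580-64121884 and of 42 tags at chr11:130820494-130820785 had folds of 15.1 and 14.7, and all 4 were outside protein-coding genes.

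Peaks of low fold differed from these in each measure. A fold below 3 was found in 1143 knockdown-only peaks (7.09%), with a median background of 9.20 tags. Their median distance to a sh-ctrl peak was 902 bp, 20.1% were at a gene end and 568 had another knockdown-only peak within 10 kb. Shared peaks of such a fold were not set beside them, so these values are not shown to be particular to knockdown-only peaks. Fold, pileup and background are linked by how the fold is computed. Position and distance do not enter that computation, but the local background is taken from the surrounding sequence of the same library. Position and distance therefore cannot be taken as separate from the split either, and how far they follow from it was not tested.

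Knockdown-only peaks were spread over all chromosomes. Their share of sh-VNGD peaks of 20 tags or more ran from 14.7% on chromosome 11 to 17.8% on chromosome 4. Another knockdown-only peak lay within 10 kb of 3683 of them (22.8%, 22.2 to 23.5) and within 50 kb of 57.2%. Among the 11277 with a local background under 5 tags, 12.6% had another such peak within 10 kb. Their nearest neighbours were knockdown-only about as often as those of shared peaks. Where the nearest neighbour of 20 tags or more was within 10 kb, that neighbour was itself knockdown-only for 2080 of 11534 knockdown-only peaks (interval 17.3% to 18.7%) and for 17.9% (17.6 to 18.3) of shared peaks. Chained at 10 kb, the set fell into 14057 groups, of which 12441 were single peaks, 1286 were pairs and 330 held 3 or more, with 1111 peaks (6.89%) in those 330.

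The 2 largest chains were in gene arrays with many copies. Chains of 10 peaks lay at chr21:8421361-8470200, in the ribosomal stretch around RNA45SN1, and at chr4:9325340-9368337, in the USP17L genes. One of 9 peaks, chr16:34572477-34595920, overlapped no gene of the table and held 2 sh-ctrl peaks. One of 7, chr4:9215602-9244314, was again in the USP17L genes, and one of 6, chr21:8213910-8243902, lay around RNA45SN2. Another 3 chains of 6 peaks were outside these arrays, chr3:64634914-64657255 in ADAMTS9, chr3:64040111-64079654 around LINC00994 and chr14:48255463-48265996. The USP17L genes encode deubiquitinating enzymes of the DUB/USP17 family in a tandem array of near-identical units. The array, chr4:9210657-9369070, has 23 entries in the gene table. It held 21 sh-VNGD peaks of 20 tags or more, and all 21 were knockdown-only, with a pileup of exactly 22 tags each and a median fold of 3.82. Of these, 20 overlapped a USP17L entry, and the median gap between summits was 4745 bp, while the sh-ctrl library had 0 peaks in the array. Since the units are near-identical and the same value recurred in all 21, the placement of reads among them is uncertain, and the array is not counted as 21 separate observations.

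The share of knockdown-only peaks varied among windows of 1 Mb. Among 2027 windows with 20 or more sh-VNGD peaks of the required pileup, the median share was 15.4% (quartiles 11.5 to 20), and 78 windows reached 30%. The interval of the share lay above 16.2% in 101 windows and below it in 48. The highest share, 55.1% (27 of 49, 41.3 to 68.1), was in the window of the USP17L array, chr4:9000001-10000000. Next were chr14:48000001-49000000, with 10 of 22 peaks (45.5%) and no protein-coding gene, and chr8:55000001-56000000, with 11 of 25 (44%) around XKR4 and LYN. After them came chr7:71000001-72000000, with 10 of 23 (43.5%) over GALNT17 and CALN1, and chr16:22000001-23000000, with 10 of 24 (41.7%). These 4 windows hold few peaks, and their intervals start between 24.5% and 26.9%.

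Windows with the most knockdown-only peaks were others. Looked up after values had been seen, chr3:64000001-65000000 had 53 of 132 peaks (40.2%, 32.2 to 48.7), chr17:60000001-61000000 had 44 of 126 (34.9%) and chr17:61000001-62000000 had 39 of 128 (30.5%). On chromosome 20, chr20:54000001-55000000 had 38 of 140 (27.1%). Median local background in these windows was 8.79, 10.7, 12.1 and 9.56 tags, against a median of 3.48 tags over all 2027 windows. They also held sh-ctrl peaks of 20 tags or more without a sh-VNGD peak, 23 in the chromosome 3 window, 14 and 34 in those of chromosome 17 and 17 in that of chromosome 20. Peaks found in 1 library only thus occurred there in both directions. All sh-ctrl peaks of that pileup were not counted per window. These counts therefore have no share to set beside the 8.15% (6061 of 74364) of chromosomes 1 to 22, and crowded windows hold more peaks of any kind.

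**Figure D5:**
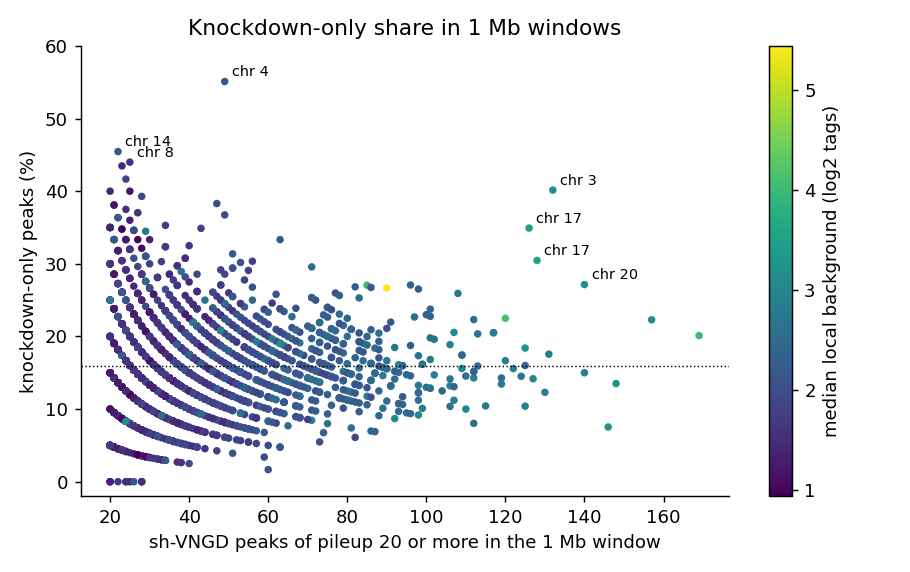
Share of knockdown-only peaks in percent (y axis) by the number of sh-VNGD peaks of pileup 20 or more (x axis) in 2027 windows of 1 Mb, coloured by median local background in log2 tags. The dotted line is the share over these windows together. The USP17L window on chromosome 4 is highest at 55.1%, and the crowded windows on chromosomes 3 and 17 stand at 40.2%, 34.9% and 30.5%.

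Of the 5 genes with most knockdown-only peaks, 4 lay in these crowded windows. ADAMTS9, a secreted metalloprotease of the extracellular matrix on chromosome 3, held 15 of its 24 sh-VNGD peaks of 20 tags or more (62.5%, 42.7 to 78.8), with 20 to 49 tags each. USP32, a deubiquitinating enzyme on chromosome 17, held 15 of 31 (48.4%), and DOK5, an adaptor of receptor tyrosine kinases on chromosome 20, held 13 of 27 (48.1%). BCAS3, first named as an amplified sequence of breast carcinoma, on chromosome 17, held 13 of 54 (24.1%). It also held 13 sh-ctrl peaks of that pileup without a sh-VNGD peak, a count for which no share was worked out. RANBP2, a nuclear pore protein on chromosome 2, held 11 of 54 (20.4%) within table bounds of 1122820 bp. Median local background of the knockdown-only peaks was 7.06 tags in ADAMTS9, 7.34 in USP32, 8.74 in DOK5 and 11.9 in BCAS3, but 3.86 in RANBP2. Of 19126 protein-coding genes on chromosomes 1 to 22, 4977 (26.0%) held at least 1 knockdown-only summit, 121 held 5 or more and 9 held 10 or more. At a gene end, 1183 genes (6.19%) had one, where genes that share an end count separately.

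Among double-strand break repair genes, 1 of 17 had a knockdown-only peak at an end and 8 held one inside, against 6.19% and 26.0% of all genes. A longer gene has more room for a peak inside, and gene length was not matched for any of the lists. RAD51B, for one, spans 863318 bp. The 12 peaks inside these genes were 15.8% of the 76 sh-VNGD peaks there. RAD52, a strand-annealing protein, held 3 of 5 peaks, of 20 to 23 tags, and RAD51B held 3 of 25, of 20 to 29 tags. XRCC6, the Ku70 end-binding subunit, had a peak of 31 tags at its end, chr22:41621638-41621887, with a fold of 3.21 and a sh-ctrl peak 222 bp away. Among chromatin remodelling genes, 1 of 15 had an end peak and 6 held one inside, with 9 of 71 peaks (12.7%). That end peak was at CHD1, a chromodomain helicase, with 37 tags at chr5:98928256-98928529 and a sh-ctrl peak at 275 bp. ARID1A and ARID1B, subunits of the BAF complex, and HMGB1, a DNA-bending protein, held 2 each, of 20 to 25 tags. These shares of peaks lay close to the 16.2% of all peaks or below it.

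Genes of glucose supply and energy sensing gave 1 of 12 at an end and 7 with a peak inside, against 6.19% and 26.0% of all genes. Length was again not matched, and PPARGC1A, one of the 7, spans 680885 bp. Of the peaks inside them, 15 of 103 (14.6%) were knockdown-only, against 16.2% of all peaks. SLC2A1, the glucose transporter GLUT1, held 1 of 66 tags at chr1:42941757-42942085, with a fold of 6.96 over a background of 8.62 tags. A sh-ctrl peak of 152 tags lay 1087 bp from it. PFKFB3, which makes the activator of glycolytic phosphofructokinase, held 6 of 16 peaks, up to 60 tags, and the hexokinase gene HK1 held 3 of 14. HK2, the other hexokinase of the list, had an end peak of 31 tags at chr2:74834741-74835174, 226 bp from a sh-ctrl peak. Cell cycle and replication genes gave 1 of 18 at an end and 4 inside, with 4 of 31 peaks (12.9%). The end peak was at CDKN1A, the p21 inhibitor of cyclin-dependent kinases, with 36 tags at chr6:36676335-36676603 over a background of 12.1 tags. E2F3, an activator of S-phase genes, held a peak of 69 tags.

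AP-1 and immediate early genes had the highest share at gene ends among the 10 lists, 3 of 11 (27.3%), against 6.19% of all genes. Inside, 3 of 11 held a knockdown-only peak, against 26.0% of all genes. Of the peaks inside them, 3 of 14 (21.4%) were knockdown-only, against 16.2% of all peaks. JUN had 53 tags at chr1:58779868-58780178 over a background of 17.1 tags, on the side away from its start site, with a sh-ctrl peak 3541 bp off. JUNB had 54 tags at chr19:12792653-12792879 over a background of 28.4 tags, and a fold of 1.87. EGR1, a zinc finger factor, had 37 tags at chr5:138465841-138466045 over a background of 15.7 tags, 201 bp from a sh-ctrl peak. With 11 genes and no test, this is a count only. Osteoblast and mesenchymal genes had none of 14 at an end and 2 with a peak inside, RUNX2 with 2 and COL1A1 with 1, or 3 of 27 peaks (11.1%).

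Marker genes of other cell types were counted in the same way. The references were again 6.19% of all genes at an end, 26.0% with a peak inside and 16.2% of all peaks. Neuronal markers had none of 12 at an end, but 10 held knockdown-only peaks inside, 29 of 197 (14.7%). These are long genes: CNTNAP2 held 7 of 35, NRXN3 6 of 29 and RBFOX1 4 of 27, all below 30 tags. Epithelial markers had 1 of 10 at an end, OVOL1 with 24 tags at chr11:65787110-65787574. Inside, 4 of 10 held one, with 7 of 55 peaks (12.7%). KRT8 held 4 of 13, up to 62 tags, ESRP1 held 1 of 51 tags and CDH1 held 1 of 40 tags. Median local background of these peaks was 16.3 tags in KRT8, 19.6 in ESRP1 and 12.2 in CDH1. Blood markers had 2 of 11 at an end and 1 of 25 peaks inside (4%). One was HBA1, an alpha-globin gene with a near-identical neighbour, with 21 tags at chr16:175988-176187, and the other IL2RB, a subunit of the interleukin-2 receptor. IL2RB had 47 tags at chr22:37126435-37126761 with a fold of 12.2 over a background of 2.92 tags, 3919 bp from a sh-ctrl peak, the highest fold of the 10 listed end peaks. Muscle markers had none of 8 at an end and 1 of 8 peaks inside.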

How the data were processed

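ATAC-seq peaks were analysed for 1 sh-VNGD and 1 sh-ctrl library of U2OS cells. Per the file headers, MACS 2.1.0.20150731 called peaks on each library without a control, at a q-value cutoff of 0.05, with tags shifted by 100 bp and extended to 200 bp, 1 tag kept per position and a local background window of 10000 bp. Builds hg38 and GRCh38 and the tools deepTools, MACS2 2.1.2 and Bowtie2 2.2.5 stand in the submitters' processing notes. The deposited pileup is a signal in tags per summit, unscaled for depth. Each deposited peak also has a −log10 p-value, a −log10 q-value and a fold enrichment, the ratio of pileup to local background with 1 added to each.

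From these, overlap, distances and local background, (pileup + 1) / fold − 1, were computed in python 3.11.15 with pandas 2.3.3 and scipy 1.17.1. The steps were tested on simulated peaks. Gene bounds and promoter windows came from RefSeq, GRCh38.p14, whose primary chromosomes match those of the files. Peaks on X, Y and other sequences were left out. The members, gene lists (10, with 128 of 129 entries matched), motifs and named regions were chosen with earlier results of these data known. Named regions were the highest by pileup and at gene ends, the farthest, the largest chains, the leading windows and genes, and listed genes. No end-named region overlapped a promoter window, so the printed promoters follow another rule. Alternatives changed the pileup minimum, overlap, q, windows and background. Results for some genes are not reported here.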

Additional observations from a re-analysis of the deposited data

How the results depend on the processing

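No paired analysis was possible because each group had 1 library and no replicate numbers were shared. Values below are given as the number of knockdown-only peaks, the gene-end share, the share within 1 kb of a sh-ctrl peak, the share within 10 kb of another knockdown-only peak, the median fold and the median local background. As reported they were 16124, 6.68%, 29.1%, 22.8%, 5.14 and 3.66 tags. A pileup minimum of 15 gave 58114, 3.35%, 20.1%, 42.3%, 5.31 and 2.48 tags. A minimum of 30 gave 2369, 17.0%, 44.2%, 17.6%, 4.2 and 7.66 tags. Requiring no sh-ctrl peak within 500 bp gave 13362, 3.46%, 14.5%, 19.3%, 5.42 and 3.38 tags. A −log10 q of 5 or more gave 14991, 5.91%, 27.5%, 19.1%, 5.36 and 3.46 tags. A local background under 5 tags, chosen after seeing the data, gave 11277, 2.83%, 20.9%, 12.6%, 6.15 and 2.86 tags. The gene-end share was 2.76% within 500 bp, 19.3% within 5000 bp, 11.9% with all genes of the table and, added later, 6.73% with start sites in place of gene ends. The share near a sh-ctrl peak was 74.5% within 5 kb and 21.4% between summits, and the share near another knockdown-only peak was 57.2% within 50 kb. Changes with the width of a window follow from that width, and for the others the cause was not tested. With 1 library a group, no alternative could leave out a replicate, and depth limits what the absence of a sh-ctrl peak can show.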
